A study of Mus musculus with 3 samples.

Results

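Keratins, keratin-associated proteins, late cornified envelope proteins and small proline-rich proteins build the outer barrier of skin, hair and other epithelia, and they were measured here in the neocortex. The set holds the 74 probe sets, for 74 genes, whose platform annotation gives 1 gene symbol of the Krt, Krtap, Lce or Sprr families, out of 14938 single-gene probe sets on the array. It comprises 36 Krt, 18 Krtap, 13 Sprr and 7 Lce genes. The tissue was neocortex of 3 wild-type CD1 mice, an outbred stock, at postnatal day 13, with no treatment or altered allele in the labels. Each mouse had 1 Affymetrix array of total RNA, and the mice form a single group with no control tissue. All values are log2 probe set intensities, given for mice 1, 2 and 3 in that order or as the mean ± SD (n = 3). The number of mice limits the precision of every value.

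Keratins are intermediate filament proteins of epithelial cells. They assemble only as pairs of a type I with a type II chain, and each layer or appendage of an epithelium uses its own pairs. Keratin-associated proteins cross-link the keratins of the hair shaft, while Sprr and Lce proteins are cross-linked under the membrane of dying keratinocytes to form the cornified envelope. Neurons and glia use other intermediate filaments, such as neurofilaments and glial fibrillary acidic protein.

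Olfactory receptor (Olfr) genes, which serve odour detection in the nose, supplied the background. For each array a limit was set at the 95th percentile of the 718 Olfr probe sets on it. The limits were 6.92, 6.80 and 6.83 on the log2 scale, which correspond to intensity values of 121.5, 111.3 and 113.5. To count as above the limit, a gene had to pass it in every mouse. Of all single-gene probe sets 73.6% did so, against 3.06% of the Olfr probe sets. Probes differ in their own background and brightness, so a value over the limit does not establish expression, and the level of one gene is not ranked against that of another. The arrays carried neocortical RNA by their markers: 9 of 9 measured neuronal, 4 of 4 astrocyte and 5 of 5 myelin genes were above the limit. Snap25 was at 12.89 ± 0.10 and Mbp at 12.86 ± 0.10. Choroid plexus (6 of 7) and meningeal genes (10 of 10) were above it too, with Ttr at 13.45 ± 0.17 and Col1a1 at 10.62 ± 0.46. In such tissue RNA, few cells with a high level and many with a low one cannot be told apart.

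Promoters of 4 genes illustrate sequence features found in part of the barrier genes. They are shown because Krt10 cleared the limit in every mouse together with its partner chain, because Sprr3 was the single Sprr gene above the limit, and because Sprr1a and Sprr1b lie next to Sprr3. Each run is from RefSeq on GRCm38.p6, covers 250 bases before to 50 bases after the start of the gene, reads 5′ to 3′ on the gene's strand, and has 2 motifs in capitals. The first, TATAAA, is a common form of the box that positions RNA polymerase. The other, TGANTCA, is the core to which AP-1 factors bind.
Krt10 (chr11:99389315-99389614, minus strand): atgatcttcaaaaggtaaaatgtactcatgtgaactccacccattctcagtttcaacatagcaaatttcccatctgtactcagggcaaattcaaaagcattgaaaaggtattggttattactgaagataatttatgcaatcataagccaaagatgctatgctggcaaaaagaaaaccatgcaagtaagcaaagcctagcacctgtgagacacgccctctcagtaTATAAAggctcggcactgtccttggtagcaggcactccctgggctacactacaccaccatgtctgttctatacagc
Sprr3 (chr3:92458671-92458970, minus strand): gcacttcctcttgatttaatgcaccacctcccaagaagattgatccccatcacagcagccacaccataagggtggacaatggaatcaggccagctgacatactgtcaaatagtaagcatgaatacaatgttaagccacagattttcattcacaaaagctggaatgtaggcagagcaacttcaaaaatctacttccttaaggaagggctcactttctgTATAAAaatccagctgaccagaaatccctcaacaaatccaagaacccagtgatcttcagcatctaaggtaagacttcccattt
Sprr1a (chr3:92485832-92486131, minus strand): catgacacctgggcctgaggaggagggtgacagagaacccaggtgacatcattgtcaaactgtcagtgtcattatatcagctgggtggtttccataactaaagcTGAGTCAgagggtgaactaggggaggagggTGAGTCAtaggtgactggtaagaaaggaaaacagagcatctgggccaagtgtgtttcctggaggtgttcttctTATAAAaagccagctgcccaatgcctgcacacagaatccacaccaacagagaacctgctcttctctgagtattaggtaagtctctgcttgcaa
Sprr1b (chr3:92438730-92439029, minus strand): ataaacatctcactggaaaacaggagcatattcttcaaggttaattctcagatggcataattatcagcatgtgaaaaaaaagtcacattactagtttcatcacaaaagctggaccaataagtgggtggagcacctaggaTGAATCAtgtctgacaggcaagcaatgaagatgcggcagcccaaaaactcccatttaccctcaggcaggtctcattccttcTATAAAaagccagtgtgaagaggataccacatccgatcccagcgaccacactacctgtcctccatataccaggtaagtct
TATAAA started 26 bases before the start of Krt10, 33 before that of Sprr3, 43 before that of Sprr1a and 30 before that of Sprr1b. TGANTCA was found at 2 places in Sprr1a, 146 and 116 bases before the start, and at 1 place in Sprr1b, 111 bases before it.

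Promoter sequences were found for 61 of the 74 genes, in 62 windows. Both strands were searched for each motif; TGANTCA reads the same on both, and its letters cannot overlap those of the other motif. TATAAA lay anywhere in 61.3% of the members' windows, in 41.6% of the Olfr windows and in 13.6% of all 32851 windows in the table. On the gene's strand and starting 20 to 40 bases before the gene, it was found in 43.5% of the members' windows, 1.5% of the Olfr windows and 1.99% of all windows. The families differed in this count, with 9 of 11 Sprr, 8 of 18 Krtap, 9 of 27 Krt and 1 of 6 Lce windows. TGANTCA was in 9 of 11 Sprr windows, 4 of 18 Krtap, 2 of 27 Krt and 0 of 6 Lce windows, against 15.2% of Olfr and 7.81% of all windows. Among members above the limit TGANTCA was in 0 of 11 windows, against 15 of 51 for the other members. TATAAA at 20 to 40 bases was in 4 of 11 and 23 of 51. These 2 groups differ in family make-up, with 8 of the 11 windows above the limit from Krt genes. Within Krt, TGANTCA was in 0 of 8 windows above the limit and in 2 of 19 of the others. TATAAA at 20 to 40 bases was in 3 of 8 and 6 of 19 of these Krt windows. A match of letters is a description and not a binding site.

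Most of the skin barrier genes did not pass the limit set by the olfactory receptors, and those that did were mainly keratins. Of the 74 members 17 were above the limit on all 3 arrays, 6 on 2 arrays, 4 on 1 array and 47 on none. By family these were 14 of 36 Krt, 2 of 7 Lce, 1 of 13 Sprr and 0 of 18 Krtap genes. The median level was 5.67 for all members, against 4.35 for Olfr and 8.90 for all single-gene probe sets. It was 6.99 for Krt, 5.31 for Sprr, 5.26 for Lce and 4.54 for Krtap. The Krtap median was thus close to that of the olfactory receptors and the Krt median between theirs and that of all genes, as a description without a test between probes.

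**Figure D1:**
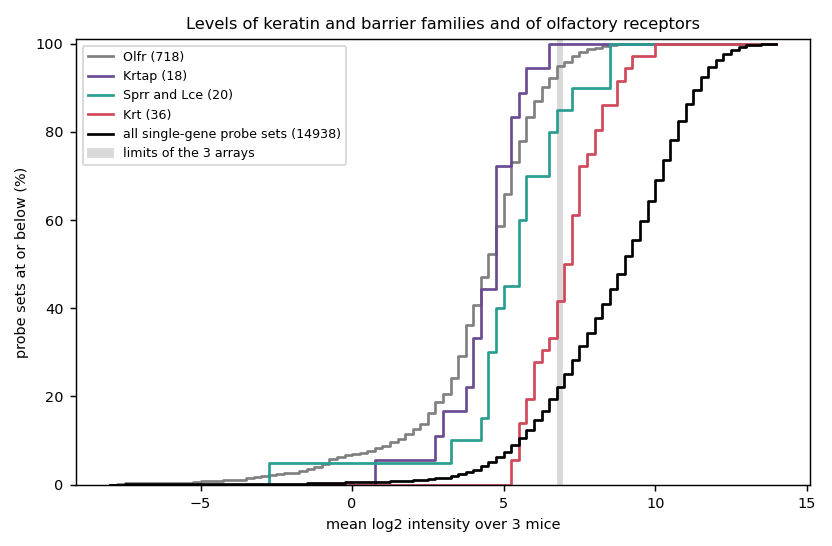
Cumulative share of probe sets (vertical axis, percent) at or below each mean log2 intensity over 3 mice (horizontal axis, in steps of 0.25), for Krt, Krtap, Sprr with Lce, Olfr and all single-gene probe sets, with the number of probe sets in brackets and the limits of the arrays as a grey band. The Krtap curve runs beside the Olfr curve, while from a level of 5.50 up the Krt curve lies between Olfr and all single-gene probe sets, and under it the Krt curve is below both.

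To set the margin over the limit against a spread between mice, margins were tested in limma, one-sided, over all 14938 single-gene probe sets. The margin was the log2 intensity minus the limit of its own array. Each gene's spread was drawn toward the trend over all probe sets, so its SE and p do not rest on its own mice alone. At a Benjamini-Hochberg adjusted p under 0.05, 72.8% of all single-gene and 2.92% of Olfr probe sets passed. Among the members 17 passed, made up of 15 Krt and 2 Lce genes. Sprr3 was above the limit on every array but did not pass (margin 0.29 ± 0.16 SE, limma adjusted p = 0.0511, and 0.0394 without mouse 2), and Krt9 passed although 1 array was under the limit. Margins and folds depend on the percentile: with the 90th every margin is 0.54 higher and with the 99th 0.97 lower, so that folds over the limit are 1.45 times higher or 1.95 times lower. With the 99th percentile 7 members passed (Krt222, Krt10, Krt1, Krt82, Krt77, Lce1b and Lce1c), and the calls of Krt12, Krt15, Krt42 and Krt88 were among those lost (limma adjusted p = 0.0887, 0.127, 0.642 and 0.659).

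Krt222, a keratin-like gene at the edge of the type I cluster, was far above the limit. It measured 9.69, 10.09 and 9.82, or 9.87 ± 0.20, which is 8.10-fold the limit (limma adjusted p = 9.99e-25). The limma adjusted p was 3.86e-158 without mouse 1 and 5.03e-142 after quantile normalization, so the size of such small values is not read further. The mice were close to each other, with a range of 0.39. Smarce1, a chromatin remodelling gene next to Krt222 in the GRCm38 order, was also above the limit at 10.87 ± 0.23. A long noncoding RNA, Gm32385, overlaps Krt222 in the same annotation, and whether the probes separate them was not tested.

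The pair of suprabasal epidermis, Krt1 (type II) and Krt10 (type I), which replaces the basal pair when a keratinocyte begins to differentiate, was above the limit in both chains. Krt10 measured 8.80, 9.38 and 9.22 (9.13 ± 0.30, 4.86-fold the limit, limma adjusted p = 1.28e-19). Krt1 measured 8.42, 9.16 and 8.75 (8.77 ± 0.37, 3.80-fold, limma adjusted p = 8.47e-16). For both genes mouse 2 gave the highest value and mouse 1 the lowest. Krt2, another type II partner of Krt10 in late epidermis, stood at 7.47, 7.18 and 6.62, under the limit in mouse 3 (limma adjusted p = 0.109, and 0.0139 without mouse 3). Krt9, the type I keratin of palm and sole skin, was at 6.92, 7.93 and 7.52 with mouse 1 just under its limit (margin 0.61 ± 0.17 SE, limma adjusted p = 0.00106, and 0.0723 without mouse 2). Krt78 at 5.76 ± 0.35 was under the limit on every array.

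Chains of the basal pair fell on opposite sides of the limit. Krt5, the type II keratin of basal keratinocytes, was at 7.86, 7.47 and 6.93 (7.42 ± 0.47, limma adjusted p = 0.000782). Mouse 3 cleared its limit by little, and with the limit at the 99th percentile the mean margin of Krt5 was -0.40. Krt14, the type I chain that polymerises with Krt5, was at 6.22, 5.79 and 5.54 (5.85 ± 0.34), under the limit in every mouse. Krt15, a second basal type I chain and a marker of hair follicle stem cells, was at 8.43, 8.11 and 7.53 (8.02 ± 0.46, limma adjusted p = 1.38e-09). All of these chains were highest in mouse 1 and lowest in mouse 3.

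The mucosal pair was split as well, with Krt4 (type II) at 7.97, 7.43 and 7.09 (limma adjusted p = 0.000159) and Krt13 (type I) at 7.25, 6.68 and 5.79. Krt13 was above the limit in mouse 1 alone. This split depends on the limit and the mice. The mean margin of Krt13 was 0.26 at the 90th percentile and 0.10 without mouse 3, and that of Krt4 -0.32 at the 99th. Krt12, the type I keratin of corneal epithelium, was above it in every mouse at 7.70, 8.59 and 7.93 (limma adjusted p = 5.97e-09). In the GRCm38 order it overlaps the long noncoding RNA A830036E02Rik, which these data do not separate from it.

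The 3 keratins of simple epithelia with a probe set of their own, the type of gut, gland and duct linings, were not above the limit on all arrays. Krt18 stood at 7.03, 6.83 and 6.69, above the limit in mice 1 and 2 and under it in mouse 3, with a mean margin of -0.0009 ± 0.17 SE. Krt19 was at 6.15 ± 0.51 and Krt20, typical of gut and Merkel cells, at 5.92 ± 0.33, both under the limit in every mouse. Krt7, another simple epithelial chain, has a probe set shared with the hair keratin Krt86, which was above the limit in every mouse at 8.09, 7.83 and 7.61 and does not separate them. Krt8, the partner of Krt18, was not analysed here. Keratins of wounded skin and of appendages also gave 0 of 3 above the limit on all arrays: Krt17 at 6.94 ± 0.31, Krt75 at 7.07 ± 0.35 and Krt16 at 5.21 ± 0.33. Krt17 and Krt75 each exceeded it on 2 arrays, and Krt75 passed the limma test without mouse 3 (adjusted p = 0.0325, against 0.138 with all mice).

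Hair follicle keratins were mixed. Of the inner root sheath chains 2 of 6 were above the limit, namely Krt72 at 7.85, 7.52 and 7.70 and Krt73 at 7.17, 7.44 and 7.58. Krt71 was at 7.67, 6.78 and 6.68, above its limit in mouse 1 alone, and passed the limma test without mouse 3 (adjusted p = 0.0481, against 0.184). Krt25 (5.38 ± 0.62), Krt27 (5.67 ± 0.26) and Krt74 (6.37 ± 0.34), a transcribed pseudogene in RefSeq, were under it everywhere.

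Among 7 keratins of the hair shaft, Krt82 and Krt35 were above the limit. Krt82, a cuticle keratin, measured 8.95, 8.83 and 8.35 (8.71 ± 0.32, 3.63-fold the limit, limma adjusted p = 9.45e-17). Krt35 was closer, at 7.56, 7.14 and 7.02, and passed the limma test with mouse 1 included (limma adjusted p = 0.0139, and 0.129 without mouse 1). The other hair keratins were Krt84 (6.86 ± 0.43), Krt34 (6.73 ± 0.19), Krt32 (5.68 ± 0.67), Krt39 (5.42 ± 0.21) and Krt31 (5.31 ± 0.35). A further 3 of 5 keratins with less settled roles were above the limit: Krt77 at 8.52 ± 0.25, Krt42 at 7.85 ± 0.09 and Krt88 at 7.84 ± 0.06. Krt79 (6.67 ± 0.08) and Krt23 (5.21 ± 0.30) were under it in each mouse.

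**Figure D2:**
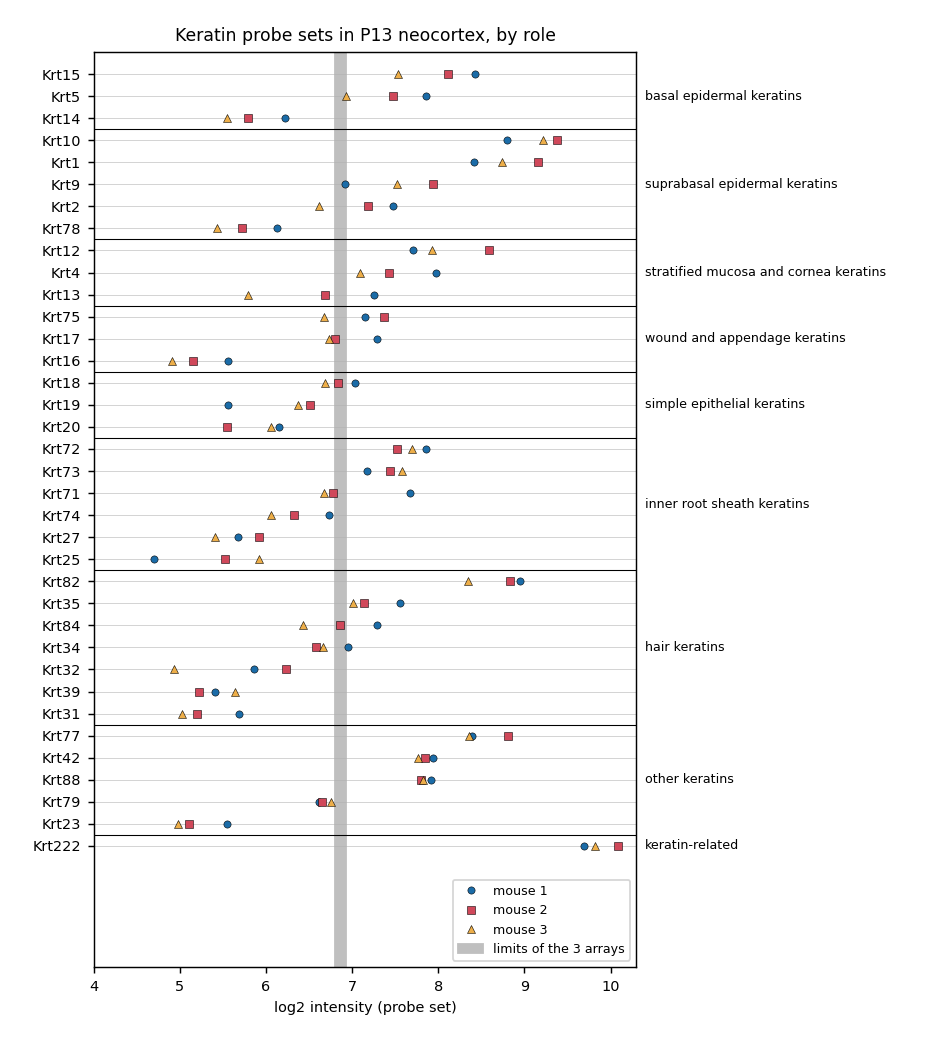
Log2 intensity (horizontal axis) of each of the 36 keratin probe sets (rows, grouped by role) in mouse 1 (circles), mouse 2 (squares) and mouse 3 (triangles), with the limits of the arrays as a grey band. Krt222, Krt10, Krt1, Krt82 and Krt77 lie well to the right of the band in every mouse, and the simple epithelial keratins near it or to the left of it.

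By chain type, 8 of 15 type II keratins and 6 of 21 type I keratins, Krt18 included, were above the limit on all arrays. Their medians were 7.40 and 6.57. The type II genes and Krt18 form a cluster on chromosome 15, and the other type I genes one on chromosome 11. In the GRCm38 order some genes above the limit neighboured each other, as Krt10 and Krt12, Krt72 and Krt73, and Krt1 and Krt77 did. Others stood beside genes not above it on all arrays, such as Krt5 beside Krt71 and Krt15 between Krt13 and Krt19.

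Within the epidermal differentiation complex on chromosome 3, a pair of Lce genes stood apart from their neighbours. Lce1b was at 8.34, 8.37 and 8.58 (limma adjusted p = 1.72e-14) and Lce1c at 7.76, 8.74 and 8.67 (limma adjusted p = 3.82e-08). The other 5 Lce genes were under the limit in each mouse, between Lce1a1 at 3.06 ± 0.49 and Lce1f at 5.56 ± 0.37. A probe set annotated to both Lce1a2 and Lce1a1 was higher, at 5.82 ± 0.17, and also under the limit on every array. Lce1 genes are near-identical copies, and a probe set annotated to both Lce1g and Lce1c was at 4.05 ± 0.27, under the limit on every array, so the value of Lce1c is uncertain.

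The Sprr genes, whose proteins bridge other envelope proteins, stayed near the limit or under it. Sprr3, which is typical of oesophagus, was at 7.42, 6.89 and 7.13. Sprr1a, also induced in injured neurons, was at 6.45, 6.66 and 6.52, and Sprr1b was at 6.11, 6.30 and 6.70. All values of both genes were under the limit. Sprr4 was at 5.33, 3.44 and 4.26. The 9 Sprr2 genes, close copies of each other, ranged from Sprr2d at 6.27 ± 0.64 down to Sprr2b, which was listed at -0.53, 1.81 and -9.75, and none reached the limit on any array. Sprr2g and Sprr2j-ps among them are transcribed pseudogenes in RefSeq. A probe set annotated to both Sprr2b and Sprr2a1 was at 5.54 ± 0.35, so the value of Sprr2b is uncertain.

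Keratin-associated proteins were under the limit throughout, apart from Krtap21-1 in mouse 2. That gene was at 6.05, 6.82 and 6.18. The other 17 means lay between Krtap19-2 at 0.65 and Krtap13-1 at 5.53 ± 0.65. Krtap19-2 was at 2.58, 2.77 and -3.39, and Krtap19-9b at 2.64 ± 0.31. The 11 Krtap genes on chromosome 16, the 5 on chromosome 11 and the 2 on chromosome 7 gave 0 above the limit in each cluster. Intensities under 1, as for Sprr2b and Krtap19-2, give large differences on the log2 scale from small ones in intensity.

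**Figure D3:**
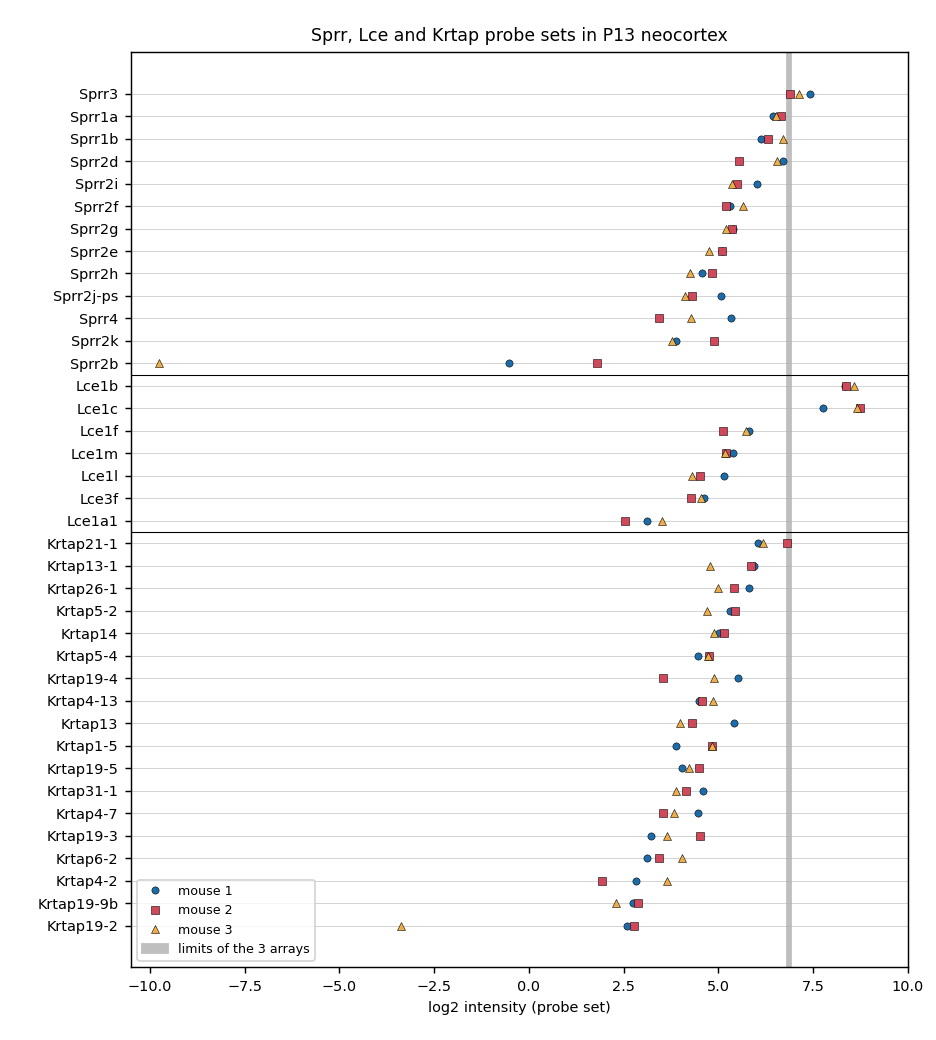
Log2 intensity (horizontal axis) of the 13 Sprr, 7 Lce and 18 Krtap probe sets (rows, in that order from the top) in mouse 1 (circles), mouse 2 (squares) and mouse 3 (triangles), with the limits of the arrays as a grey band. Lce1b and Lce1c lie to the right of the band in every mouse and Sprr3 at its edge, while Sprr2b and Krtap19-2 have 1 very low value in mouse 3.

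Gene size differed between these families. The genomic span in GRCm38 had a median of 7246 bases for Krt, 1346 for Sprr, 1338 for Lce and 837 for Krtap genes, against 951 for Olfr and 20033 for all single-gene probe sets. Among genes of at most 1.5 kb that were neither Olfr nor members, 120 of 375 were above the limit, with a median level of 6.05. All 18 Krtap genes are of that size, and 0 of them were above it. Between 3 and 12 kb, 72.4% of 3511 other genes were above the limit with a median of 8.58, against 40.6% of 32 Krt genes with a median of 7.05. Few Olfr probe sets have that span: of those from 3 to 6 kb, 2 of 45 were above the limit, and of those from 6 to 12 kb 1 of 32. The part of gene size or probe number in the keratin levels was not tested.

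Other genes of the barrier program were measured on the same arrays. Of 21 cornification genes, from structural envelope proteins to lipid and protease enzymes, 7 were above the limit and 8 passed the limma test. Lor (loricrin, the main envelope protein) was at 7.81, 8.14 and 8.26. Ivl (involucrin, an early scaffold of the envelope) was under the limit in every mouse at 4.02, 3.55 and -6.09. Tgm1, the transglutaminase that cross-links them, was at 7.16, 6.78 and 6.65, above its limit in mouse 1 alone. Rptn, an envelope precursor, was at 4.98 ± 0.48, and Tgm3, a transglutaminase of the late envelope, at 7.02 ± 0.51 with 2 arrays above.

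Desmosome and adhesion genes of epidermis, many of them used by other cells too, were above the limit in 12 of 16 cases, and 11 passed the limma test. Ppl was the one that did not (7.08 ± 0.12, limma adjusted p = 0.115). Jup, plakoglobin of junctions generally, was at 9.68 ± 0.16, and Evpl, an envelope scaffold, at 7.18 ± 0.16. Pkp3 (5.19 ± 0.52), Dsc1 (5.85 ± 0.39) and Dsc3 (6.25 ± 0.12) were under the limit in every mouse. Of 11 epidermal regulators 6 were above it, among them Trp63, the master regulator of stratified epithelia, at 7.86, 7.71 and 7.16, and Grhl3. Ovol1 (5.10 ± 1.07), Zfp750 (4.76 ± 0.41) and Dlx3 (6.68 ± 0.29) were under it in every mouse. Tfap2a and Sfn passed it in mouse 1 alone. Of 11 hair follicle genes 8 were above it, with Hoxc13, a regulator of hair keratins, at 7.76 ± 0.18. Gprc5d (5.06 ± 0.19), Dsg4 (6.19 ± 0.53) and S100a3 (6.02 ± 0.33) were under it in every mouse. The shares were 33.3% for cornification, 75% for junctions, 54.5% for regulators and 72.7% for hair follicle genes, so the last and the junction list lay near the 73.6% of all single-gene probe sets.

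Genes of epithelia in general, and of linings that border the cortex, were counted with the same limit. Of the general epithelial genes 8 of 11 (72.7%) were above it, near the 73.6% of all single-gene probe sets. Epcam was at 7.73 ± 0.16 and Cdh1 at 7.39 ± 0.17, and the summed intensity of the list ran from 1652 to 1978 over the mice. Choroid plexus genes gave 6 of 7 (summed intensity 11938 to 14738), ependymal genes 5 of 5 (880.0 to 1360) and meningeal genes 10 of 10 (14437 to 21856). Esrp1, Elf3 and Rab25 of the general epithelial list were under the limit in every mouse, and none of the measured genes of these lists was listed at 0. The part of these cells in the keratin levels was not tested. Other intermediate filament genes, those of neurons and glia with muscle, lens and lamin genes, were above the limit in 13 of 14 cases, Nefl at 12.11 ± 0.17, Ina at 11.79 ± 0.06 and Gfap at 11.11 ± 0.15.

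**Figure D4:**
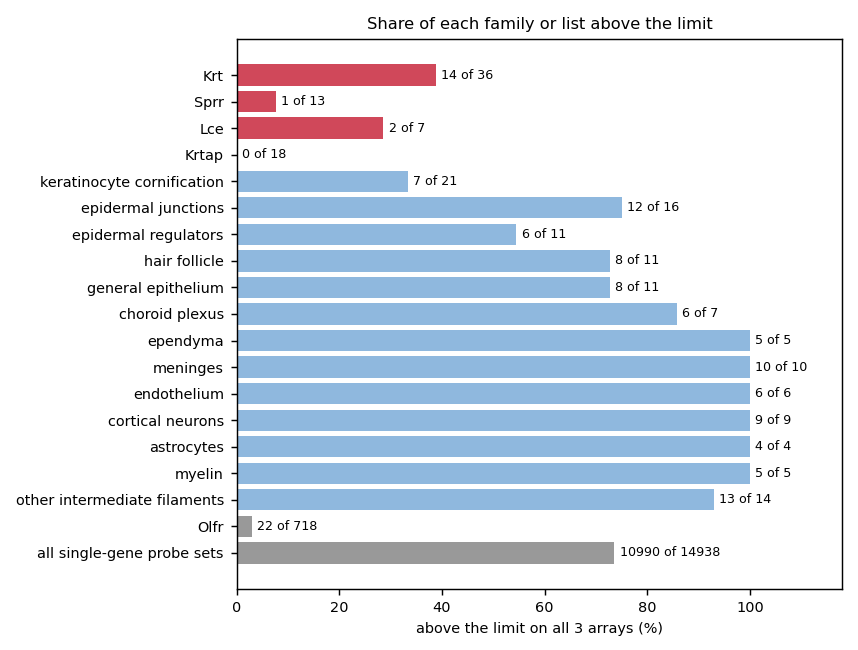
Share of each family or gene list above the limit on all 3 arrays (horizontal bars, percent, starting at 0), with counts beside the bars; red bars are the keratin and barrier families, blue bars the other lists and grey bars Olfr and all single-gene probe sets. The 4 red bars, from 0 of 18 Krtap to 14 of 36 Krt, are all shorter than the bar of all single-gene probe sets at 73.6%.

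The median SD between mice was 0.35 over the members, 0.50 over Olfr and 0.19 over all single-gene probe sets, and no member passed the test for excess variance. In limma's model, fitted to the 13588 probe sets above the limit, 0.0662% of all probe sets and 0 of 17 tested members had an adjusted p under 0.05. At an unadjusted p under 0.05 there were 5 of the 17, against 5.22% of all probe sets. They were Lce1c (SD 0.55, limma adjusted p = 0.702), Krt12 (0.46, 0.91), Krt5 (0.47, 0.91), Krt15 (0.46, 0.91) and Krt4 (0.44, 0.943). With all probe sets of the array tested, the count of members was also 0.

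The mice nonetheless did not scatter evenly. Of the 36 Krt genes 22 (61.1%) were highest in mouse 1, against 49.4% of Olfr and 31.4% of all single-gene probe sets. Mouse 3 was lowest in 22 of the 36, against 349 of 718 Olfr and 5955 of 14938 single-gene probe sets. Of the 36 Krt genes, 18 had mouse 1 highest, mouse 2 between and mouse 3 lowest. The same order held for 30.1% of Olfr and 21.5% of all single-gene probe sets. For Krt, the median deviation from each gene's mean came to 0.20 in mouse 1, 0.00 in mouse 2 and -0.22 in mouse 3. For Olfr it was 0.23, 0.03 and -0.17, and for all single-gene probe sets -0.04, 0.09 and -0.04. After quantile normalization the Krt values were 0.13, -0.06 and -0.09 and the order held for 30.6% of Krt and 24.9% of Olfr probe sets. Among the Krt genes with another order, Krt222, Krt10, Krt1, Krt12, Krt9 and Krt19 had mouse 1 lowest and mouse 2 highest. Mouse 1 was lowest for 9 of the 36 Krt genes, against 148 of 718 Olfr and 6798 of 14938 single-gene probe sets. Mouse 2 was highest for 10 Krt genes in all (27.8%), against 28.6% of Olfr and 53.1% of all single-gene probe sets. The summed intensities of the meningeal list (14437, 21856 and 17006), the ependymal list (880.0, 1360 and 1184) and the neuronal list (40361, 45549 and 43868) had their lowest and highest values in the same mice. The more common Krt order, highest in mouse 1 and lowest in mouse 3, was that of the endothelial list (3297, 3084 and 2836), the epidermal junction list (6215, 5551 and 5505), the epidermal regulators (1909, 1829 and 1495) and the general epithelial list (1978, 1961 and 1652). Cornification (5500, 6241 and 5332) and hair follicle genes (3009, 3180 and 2720) were highest in mouse 2 and lowest in mouse 3. For choroid plexus, astrocyte, myelin and other intermediate filament genes mouse 3 had the highest sum and mouse 1 the lowest. A sum is weighted to the brightest genes of its list. By the median deviation per gene, mouse 2 was highest for general epithelium (0.01, 0.17 and -0.10) and lowest for epidermal junctions (0.17, -0.11 and -0.10). Mouse 3 was then lowest for the other intermediate filament genes (-0.01, -0.02 and -0.04). The remaining lists had the same order of mice by both measures. The part of these lists in the keratin values was not tested.

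**Figure D5:**
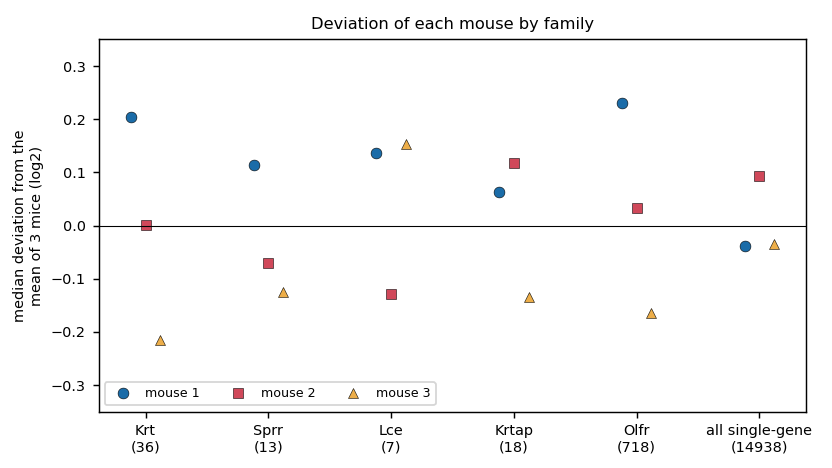
Median over probe sets of the deviation of each mouse from the mean of the 3 mice (vertical axis, log2), for each family, Olfr and all single-gene probe sets (horizontal axis, number of probe sets in brackets). Mouse 1 lies highest and mouse 3 lowest in Krt, Sprr and Olfr (in Sprr not after quantile normalization), and mouse 2 lies highest in Krtap and in all single-gene probe sets.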

How the data were processed

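Neocortical total RNA of 3 wild-type mice was extracted with Trizol and labelled with the Affymetrix whole-transcript sense assay, per the labels' protocols. The authors deposited 1 intensity for each probe set and array, which is linear by its values. The submitters' processing notes name Affymetrix Power Tools and mm8. How background was corrected and arrays normalized is not given in the sources used here. Median intensities on the arrays were 248.1, 256.6 and 230.6, so they do not share 1 distribution. The mice are biological replicates per the series' design text, and their number limits the precision.

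Log2 was taken with no pseudocount. Of 23172 probe sets, 14938 had 1 gene symbol in the platform annotation, 989 had several entries (for Krtap16-3 the same symbol repeated) and 7245 are unnamed here. All 74 members have an entry in RefSeq for GRCm38, from which came gene order and spans, and 0 symbols changed. The margin test used limma 3.58.1 in R 4.3.3 (trended, robust eBayes, one-sided, Benjamini-Hochberg over 14938 probe sets), and the variance test limma's robust fit of the F distribution over probe sets above the limit. Both were tried on simulated data with the same base spread at every level. Low members such as Sprr2b and Krtap19-2 varied more between mice, so the simulation does not cover them. Alternatives were other limits, scalings, a pseudocount of 16, other variance models and each mouse left out.

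The members and lists were chosen with earlier results of these data known. The genes named are those above the limit, those within 0.25 of it in mean margin, the 3 lowest, a written list of well-known members, and at most 6 genes of each other list in written order. Krt9, Krt13, Krt78, the remaining keratins of each role, Sprr2d, Lce1f, Krtap21-1, Krtap13-1 and Smarce1 were named after their values were seen. So were the junction, regulator, hair follicle and general epithelial genes given as not above the limit on all arrays. Krt6a, Krt6b, Krt8, Sprr2a and Lce3b are not analysed here as single-gene probe sets.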

Additional observations from a re-analysis of the deposited data

How the results depend on the processing

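The number of members above the limit was 17. It became 27 with the limit at the 90th percentile of Olfr (79.9% of all single-gene probe sets) and 6 at the 99th (61.6%), and lay between 17 and 22 with 1 mouse left out. The number past the limma test was 17, or 26 and 7 at those limits and 16 to 20 with 1 mouse left out. The count with excess variance was 0 under each alternative run. The median level was 5.67, 6.08 as log2(intensity + 16), and 5.62 to 5.88 with 1 mouse left out. The range of the median deviations of the mice was 0.30, but 0.13 after quantile normalization and 0.12 to 0.27 with 1 mouse left out. At the 90th percentile the mean margin turned positive for Krt18 (0.54), Krt34 (0.42), Krt79 (0.36), Krt13 (0.26), Sprr1a (0.23) and Sprr1b (0.0583). At the 99th it turned negative for Krt84 (-0.96), Krt17 (-0.88), Krt71 (-0.77), Krt75 (-0.75), Krt2 (-0.73), Sprr3 (-0.67), Krt35 (-0.58), Krt73 (-0.42), Krt5 (-0.40), Krt9 (-0.36), Krt4 (-0.32) and Krt72 (-0.13). With 1 mouse left out, margins spanned 0 for Krt84 (-0.17 to 0.21), Krt71 (-0.0833 to 0.36), Krt17 (-0.0496 to 0.18), Krt18 (-0.0538 to 0.0686) and Krt13 (-0.58 to 0.10). The changes with the percentile follow from the height of the limit; the cause of the other changes was not tested. Of the alternative values of the named genes, 264 kept direction and side of the threshold, and 24 turned direction. Of the rest, which kept direction, 10 came to pass the test and 6 no longer passed it. Among the 24, Krt4, Krt5, Krt9, Krt35, Krt72 and Krt73 also lost their call at the 99th percentile. Krt18, Krt34 and Krt79 also gained one at the 90th (limma adjusted p = 0.000665, 0.0078 and 0.0209). No paired analysis was possible because the samples form 1 group. Low members, several of them near-identical copies, are limited by the signal over background.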

Other observations

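Another 17 probe sets carry several gene entries of which at least 1 is a keratin or barrier gene, and they were left out of the counts above. For 1 of them both entries are Krtap16-3. A probe set shared by Krt7 and Krt86 was above the limit on all 3 arrays at 8.09, 7.83 and 7.61. One shared by Krt87, Krt81 and Krt83, which are hair keratins, was also above it at 7.80, 7.60 and 7.56. A further one, of Krt90, Krt80 and Krt83, was above it in mouse 1 alone at 6.73 ± 0.18 (SD, n = 3). The other 14, for Krtap, Lce and Sprr2 genes and Krt33a, were above it on 0 arrays. Apart from the probe set of Krtap16-3, the values are summed over genes that the probes cannot separate.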
